A study of Mus musculus with 68 samples.

Results

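The second pharyngeal arch (PA2) of mouse embryos labelled Hoxa2-/- was compared between E10.5 and E10.0. The comparison used 8 of the 68 libraries of the study: 5 at E10.0 and 3 at E10.5, each chosen by its arch, genotype label and stage. All 8 came from the strain CBA/Ca/J x C57BL/10 and carried the same genotype label, so that neither differed between the groups. The stages were taken from different embryos, so differences between embryos other than stage may enter the comparison. Per the series text each library is an arch of 1 embryo, and the first arch (PA1) of the same 8 embryos was sequenced too, which gave the arch used for comparison. Whole arches were dissected by hand, so each library holds mesenchyme, epithelium, vessels and blood together. No protocol that sorts cells is given in the labels.

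Pharyngeal arches form in pairs along the sides of the throat of the embryo. Each has an ectodermal cover, an endodermal pouch lining and a core of mesoderm, and is filled by mesenchyme from the cranial neural crest. PA1 gives the jaws and PA2 the stapes, the styloid process and part of the hyoid. Within an arch, endothelin-1 from the epithelium and core signals to its receptor on crest cells and sets ventral against dorsal identity, and Hoxa2, a homeobox gene, sets the identity of PA2 against that of PA1.

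The Hoxa2 transcript did not separate this label from wildtype in the direction of a loss. In PA2 of the libraries labelled Hoxa2-/- it stood at 88.2, 113.2, 111.3, 88.8 and 87.2 CPM (read counts scaled to a common library size) in the 5 libraries of E10.0, and at 147.4, 133.8 and 116.0 CPM in the 3 of E10.5. In wildtype PA2 the means were 47.5 ± 4.49 CPM (SD, n = 5) at E10.0 and 58.3 ± 4.52 CPM (SD, n = 3) at E10.5. The Hoxa2 transcript level therefore goes against the label at both stages. Of its reported targets, 3110099E03Rik stood, under the label, at 2.00 ± 1.09 CPM against 17.99 ± 9.89 CPM in wildtype PA2 at E10.0 (SD, n = 5 each) and at 6.29 ± 2.76 CPM against 162.5 ± 13.1 CPM at E10.5 (SD, n = 3 each). Meis2 averaged 115 CPM under the label and 160.1 CPM in wildtype at E10.0, and 111 and 175 CPM at E10.5. Kcna5 averaged 8.90 and 29.65 CPM in that order at E10.0, but 10.37 and 8.87 CPM at E10.5. Pitx1 averaged 2.58 and 0.665 CPM at E10.0, and 6.18 and 0.623 CPM at E10.5. The direction thus differed between these genes, and most others of the list are not set beside wildtype here. These wildtype values are descriptions and were not tested. The wildtype PA2 libraries of E10.5 held 17244704 to 18700596 reads, more than any of the 8 libraries compared here. Whether a library batch separates them from the label at that stage was not tested. The labels do not say which part of the gene was removed, and a count over the whole gene does not check a deletion within it. Between the stages the E10.0 and E10.5 values of Hoxa2 did not overlap, and the log2 difference of 0.44 (SE 0.18) did not pass the test (adjusted p = 0.417). In PA1 it stood at 0.378 CPM at E10.0 and 0.377 CPM at E10.5 on average.

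The 8 libraries held 12492813 to 14558318 reads, at which 3 reads equal 0.203 to 0.24 CPM. Replicates differed by more than counting noise, with a chi-square per degree of freedom of 6.14 to 14.3 over 26 pairs of the 4 groups used here. Along the first principal component, which held 26.3% of the variance of the 8 libraries, E10.5 replicate 1 lay at one end (score 27.2) and E10.0 replicate 1 at the other (score -20.6). E10.0 replicate 2 (score 5.08) lay closest to the E10.5 libraries. Summed markers of arch mesenchyme ran from 921 to 1160 CPM at E10.0 and from 1041 to 1195 CPM at E10.5, and all 14 of them averaged at least 1 CPM in both groups. E10.0 replicate 4 stood apart with 345.3 CPM of yolk sac endoderm markers, against 19.4 to 26.9 CPM in the other 4 libraries of that stage. Xist was the higher side of the sex-linked genes in 2 of 5 embryos at E10.0 and in 1 of 3 at E10.5.

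Between E10.0 and E10.5, 44 of 18428 genes tested differed between the stages (0.239%). Of these, 17 were higher at E10.5 (0.0923%) and 27 were lower (0.147%). Among the 27 that fell were Wfikkn1, the ligand gene Edn1, Lin28a, Sall4, Sall1, Prtg, Nkx2-6, Nkx2-3 and Ocln. Among the 17 that rose were the endothelin receptor gene Ednra, the homeobox gene Gsc, the tendon regulator Scx, Cyp26a1, whose enzyme degrades retinoic acid, and 6 noncoding RNAs including Pantr1. Of the 44 genes, 12 belonged to one of the gene lists used here and 32 to none. The log2 difference, on the log2(CPM + 1) scale, ran from -1.74 for Wfikkn1 to 2.28 for Pantr1. Without adjustment, 1633 genes (8.86%) had a p under 0.05, of which 736 were higher (3.99%) and 897 lower (4.87%).

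**Figure D1:**
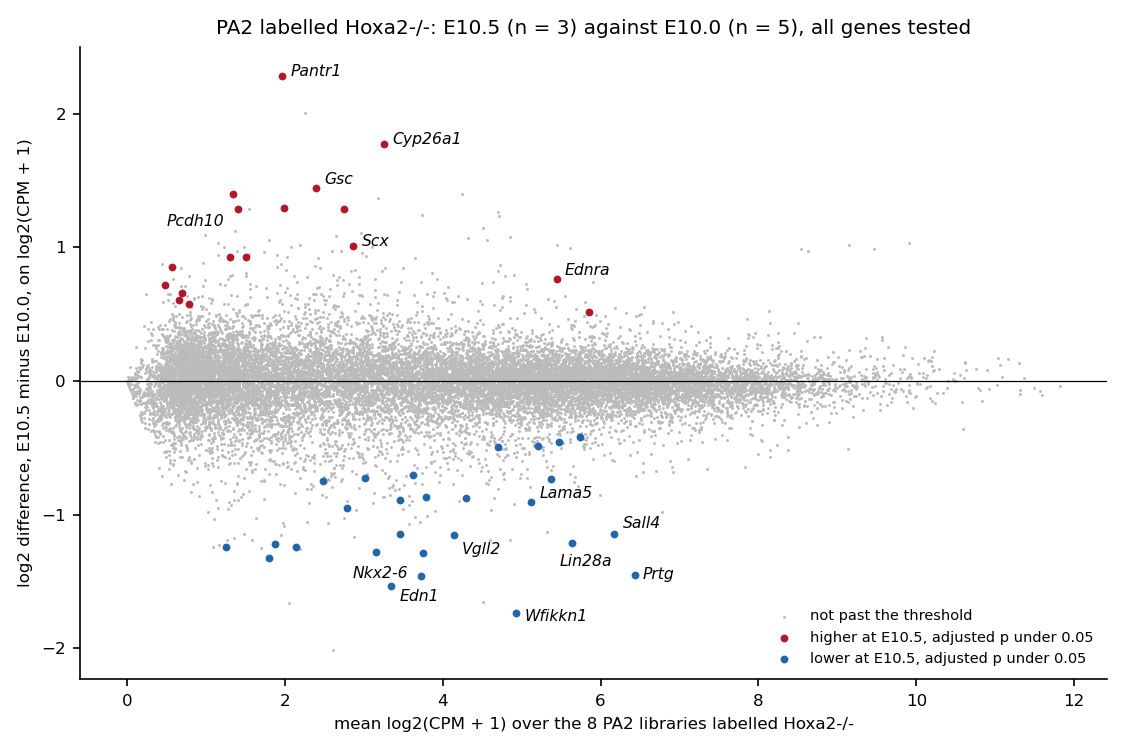
Each point is 1 of the 18428 genes tested in PA2 labelled Hoxa2-/-, with its mean log2(CPM + 1) over the 8 libraries on the x axis and its log2 difference, E10.5 minus E10.0, on the y axis. The 17 genes past the threshold that were higher at E10.5 are red and the 27 that were lower are blue, and 9 of the red and 3 of the blue genes averaged under 5 CPM at both stages.

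The test was limma with Benjamini-Hochberg adjustment over all genes and a threshold of 0.05, with 1 mean per group over all 68 libraries. How many genes passed depended on single embryos: without E10.5 replicate 1 the count was 4, without E10.0 replicate 1 or without E10.0 replicate 5 it was 12, without E10.5 replicate 3 it was 24, and without E10.0 replicate 2 it was 70. The 4 genes that passed without E10.5 replicate 1 were 2610316D01Rik, D030025E07Rik, Pantr2 and Kcna1, all named after their values were seen. All 44 genes kept the sign of their difference in every one of the 8 fits that left out 1 library. Of the 17 higher genes, 16 had values that did not overlap between the stages (3.97% of all genes tested were higher without overlap), and of the 27 lower genes 26 had such values (5.17% of all).

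The ligand and the receptor of the endothelin pathway moved in opposite directions. Edn1, the gene of the ligand endothelin-1 (chr13:42301476-42307990, mm10, plus strand), stood at 21.5, 10.8, 13.97, 10.0 and 17.2 CPM in the 5 libraries of E10.0. It stood at 2.44, 5.92 and 4.98 CPM in the 3 libraries of E10.5, each below all values of E10.0. The means were 14.7 ± 4.75 CPM (SD, n = 5) and 4.45 ± 1.80 CPM (SD, n = 3), and the log2 difference was -1.53 (SE 0.27, adjusted p = 0.00119). Ednra, the receptor through which crest mesenchyme reads that ligand, stood at 22.2, 42.4, 35.7, 39.0 and 37.8 CPM at E10.0 and at 74.2, 45.2 and 62.7 CPM in the E10.5 embryos. The groups did not overlap, with E10.5 replicate 2 the closest to E10.0, and the log2 difference was 0.76 (SE 0.18, adjusted p = 0.047).

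Gsc encodes the homeobox factor goosecoid, a gene known to lie downstream of endothelin signalling in the arches. It stood between 2.177 and 2.943 CPM in all 5 libraries of E10.0 and at 12.8, 5.36 and 9.82 CPM in the 3 of E10.5. The E10.0 embryos lay close together and the E10.5 embryos were spread widely above them. The log2 difference was 1.44 (SE 0.30, adjusted p = 0.0158). These 3 were the members of the dorsoventral patterning list that passed the test, 2 higher and 1 lower among 35 tested. Over all genes tested, 0.0923% passed as higher and 0.147% as lower. At an unadjusted p under 0.05 with limma, 7 members were higher and 3 lower, against 3.99% and 4.87% of all genes. The list's median log2 difference was 0.23, against -0.00 over all genes tested. Of its 35 members 24 had a positive difference, against 9195 of all 18428 genes. Without 1 library in turn that median ran from 0.10 to 0.35. The ventral Dlx5, Dlx6 and Hand2, which are further known readouts of endothelin signalling, had log2 differences of 0.23, 0.25 and 0.23 and did not pass the test. Without E10.5 replicate 1 the adjusted p was 0.193 for Edn1, 0.52 for Gsc and 0.722 for Ednra. Gsc also missed the threshold without E10.0 replicate 1 (0.0632) or E10.5 replicate 3 (0.106). Ednra also missed it without E10.0 replicate 1 (0.241), 3 (0.0583) or 5 (0.0808), or E10.5 replicate 3 (0.212).

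**Figure D2:**
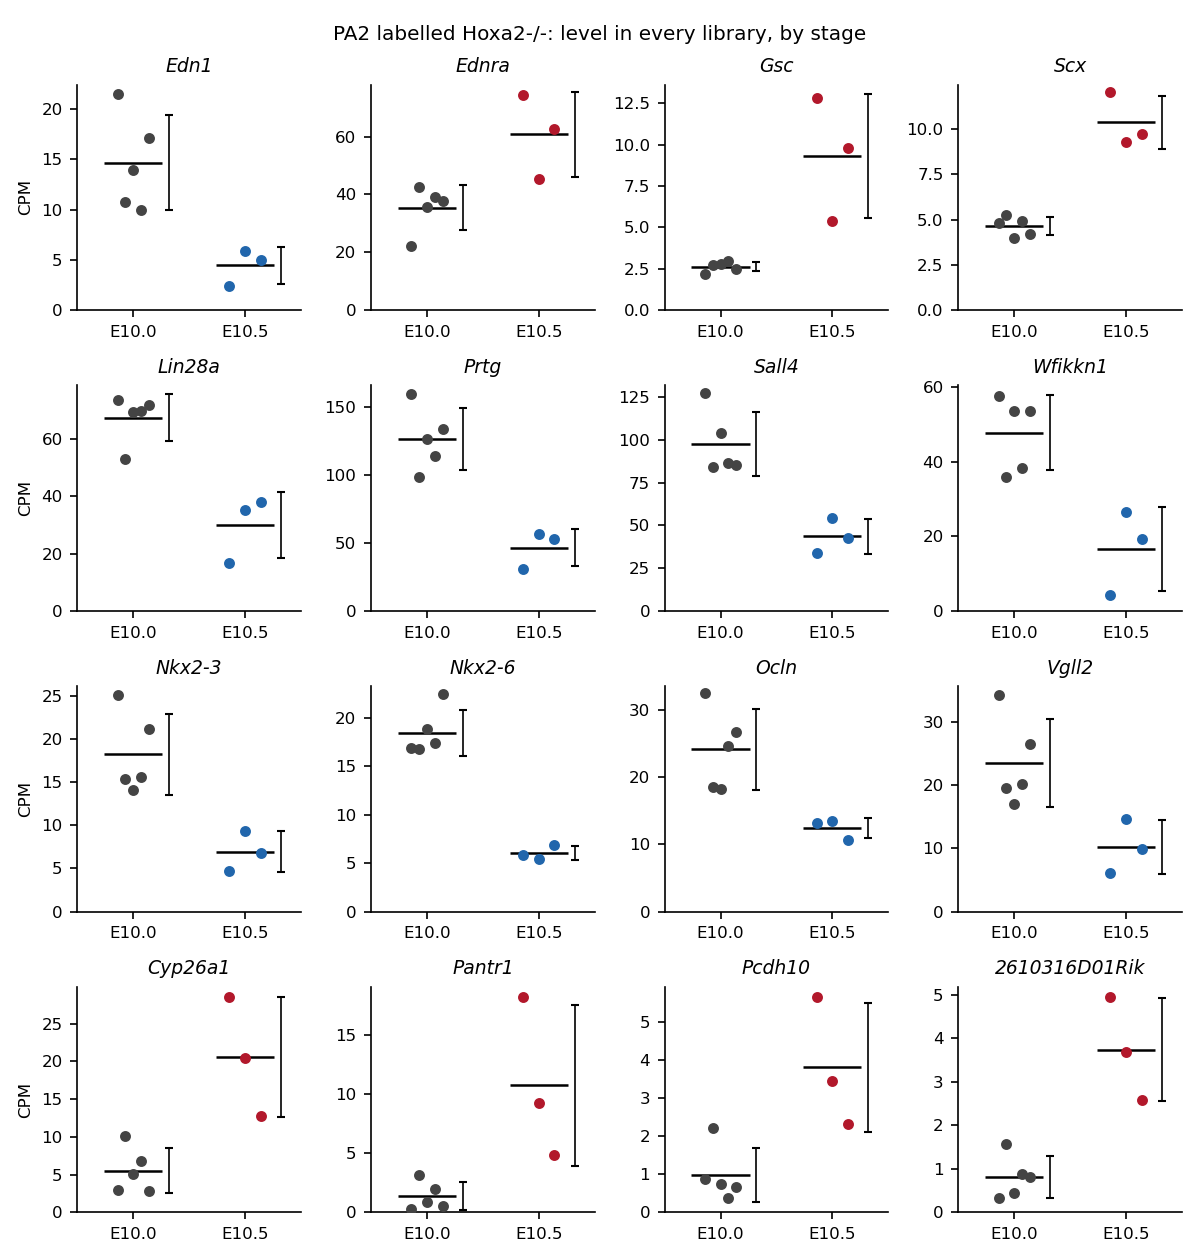
Each panel plots the CPM of 1 gene in every PA2 library labelled Hoxa2-/- (points), with 5 libraries at E10.0 and 3 at E10.5, from a y axis that starts at 0. Horizontal lines are group means and bars their SD. In all 16 panels the 2 stages do not overlap, and in all but Nkx2-6 and Ocln the E10.5 library farthest from E10.0 is replicate 1.

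Lin28a, Sall4, Sall1 and Prtg fell. Lin28a encodes an RNA-binding protein that blocks the maturation of let-7 microRNAs and marks early developmental time. It stood at 73.7, 52.9, 69.4, 69.6 and 71.7 CPM at E10.0 and at 16.9, 35.1 and 38.1 CPM in the E10.5 embryos. All E10.5 embryos lay below all E10.0 embryos, and E10.5 replicate 1 was the lowest. The log2 difference was -1.21 (SE 0.25, adjusted p = 0.0124).

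Sall4, a zinc finger factor of stem and progenitor cells, stood at 127.2, 84.3, 104.2, 86.5 and 85.1 CPM at E10.0 and at 34.1, 54.5 and 42.3 CPM in the E10.5 embryos. Its log2 difference was -1.15 (SE 0.26, adjusted p = 0.0274). Its relative Sall1 fell by 1.15 on the same scale (SE 0.26, adjusted p = 0.0274), from 14.4 ± 5.19 CPM (SD, n = 5) to 5.82 ± 1.66 CPM (SD, n = 3). Prtg, which encodes protogenin, a membrane protein of early embryonic tissue, stood at 159.4, 98.6, 126.4, 113.6 and 134.0 CPM at E10.0 and at 30.8, 56.2 and 52.8 CPM in the E10.5 embryos. Its log2 difference was -1.45 (SE 0.26, adjusted p = 0.00166).

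The list of the Lin28 and let-7 axis held 21 tested genes, of which Lin28a and Sall4 passed the test, both lower, against 0.147% lower over all genes. At an unadjusted p under 0.05 with limma, 8 were lower and 3 higher, against 4.87% and 3.99% of all genes. Its median log2 difference was -0.19, and 15 of 21 had a negative difference, against 9228 of all 18428 genes. Without overlap between the stages, 7 were lower and 2 higher, against 5.17% and 3.97% of all genes. Trim71, a further early gene under let-7 control, stood at 31.7 to 42.2 CPM at E10.0 and at 18.7 to 26.1 CPM in the E10.5 embryos. Its log2 difference of -0.72 (SE 0.18) missed the threshold with limma at an adjusted p of 0.0572, and passed with edgeR at 0.0476. Mycn, Arid3b and Nr6a1 had log2 differences of -0.64, -0.68 and -0.97 and adjusted p-values of 0.0891, 0.0876 and 0.186, with values that did not overlap between the stages in any of the 3. The list was not uniform. The zinc finger genes Bcl11a and Bcl11b had positive log2 differences of 1.27 and 1.07 (limma adjusted p = 0.335 and 0.329). With edgeR, Bcl11a passed as higher (adjusted p = 0.0476), beside Sall4 and Trim71 as lower, while Lin28a missed the threshold (0.0601). Lin28b, the other Lin28 gene, had -0.29 (adjusted p = 0.746). Without E10.5 replicate 1 the adjusted p was 0.545 for Lin28a, 0.52 for Sall4 and 0.243 for Prtg. Sall4 also missed the threshold without E10.0 replicate 1 (0.117), E10.0 replicate 5 (0.0632) or E10.5 replicate 3 (0.123). Sall1 missed it without the same 4 libraries, with 0.52 without E10.5 replicate 1, 0.166 without E10.0 replicate 1, its highest library, 0.0692 without E10.0 replicate 5 and 0.115 without E10.5 replicate 3.

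Wfikkn1 had the most negative difference of all genes that passed. It encodes a secreted protein that binds the growth factors myostatin and GDF11. It stood at 57.8, 35.9, 53.6, 38.3 and 53.7 CPM at E10.0 and at 4.35, 26.4 and 19.4 CPM in the E10.5 embryos. All 3 E10.5 embryos were lower than all E10.0 embryos, but E10.5 replicate 1 lay far below the other two. The log2 difference was -1.74 (SE 0.31, adjusted p = 0.00176), and -1.02 without E10.5 replicate 1 (adjusted p = 0.52). Over the fits that left out 1 library the adjusted p of Wfikkn1 ran from 0.000424 to 0.52. It missed the threshold with edgeR (adjusted p = 0.114) and with DESeq2 (adjusted p = 0.0886).

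Nkx2-6 and Nkx2-3, which encode homeobox factors of pharyngeal endoderm, fell. Nkx2-6 stood at 16.9, 16.8, 18.9, 17.4 and 22.5 CPM at E10.0 and at 5.87, 5.44 and 6.87 CPM in the E10.5 embryos, so that the groups lay far apart. Its log2 difference was -1.46 (SE 0.33, adjusted p = 0.0285). Nkx2-3 stood at 25.1, 15.4, 14.1, 15.6 and 21.1 CPM at E10.0 and at 4.65, 9.36 and 6.80 CPM in the E10.5 embryos (log2 difference -1.29, SE 0.23, adjusted p = 0.00144). The tight-junction gene Ocln fell from 24.1 ± 5.96 CPM (SD, n = 5) to 12.4 ± 1.55 CPM (SD, n = 3), with a log2 difference of -0.88 (SE 0.19, adjusted p = 0.0164).

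Lama5, the laminin chain of epithelial basement membranes, fell by 0.91 on the log2 scale (SE 0.21, adjusted p = 0.0324), from 36.8 to 51.1 CPM at E10.0 to 18.1 to 27.3 CPM at E10.5. Esrp1, a splicing regulator of epithelial cells, fell by 0.49 (adjusted p = 0.0452), and Crb3, a protein of the apical membrane, by 0.75 (adjusted p = 0.0405). Crb3 was chosen for naming after its values were seen. Car12, a membrane carbonic anhydrase, and Vgll2, a cofactor of TEAD factors, fell by 1.28 and 1.15 (adjusted p = 0.0421 and 0.0321). Fyb2, Sowahb and the HMG-box gene Tox2 fell by 1.24, 0.95 and 0.89, each without overlap. Without E10.5 replicate 1 none of these passed, with adjusted p-values from 0.161 for Sowahb to 0.722 for Vgll2. Nkx2-3 passed without each of the other libraries, and the other 10 genes also missed the threshold without E10.0 replicate 1 (0.0632 to 0.192), E10.0 replicate 5 (0.0692 to 0.162) or E10.5 replicate 3 (0.0854 to 0.257). Nkx2-6 missed it too without E10.5 replicate 2 (0.0981), Crb3 without E10.0 replicate 4 (0.066), and Car12 without E10.0 replicate 3 or 4 (0.0583 and 0.0688). Esrp1 missed it too without E10.0 replicate 2 or 4 or E10.5 replicate 2 (0.0522, 0.102 and 0.0522).

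The list of epithelium and pouch markers held 31 tested genes. Of these, 3 passed and all were lower (Nkx2-6, Nkx2-3 and Esrp1), against 0.147% lower over all genes. At an unadjusted p under 0.05, 19 were lower and 1 was higher, against 4.87% and 3.99% of all genes. The list's median log2 difference was -0.49, and ran from -0.56 to -0.37 without 1 library in turn, with 25 to 28 of the 31 genes negative. The summed level of its 32 markers was 1262, 984, 797, 1108 and 1285 CPM at E10.0 and 684, 831 and 718 CPM at E10.5. E10.0 replicate 3 thus lay below E10.5 replicate 2, and the groups overlapped. Among markers of all epithelium, Epcam stood at 76.8 to 121.5 CPM against 65.6 to 85.8 CPM, and Cdh1 at 107.2 to 168.2 CPM against 85.7 to 95.3 CPM. Neither passed the test (adjusted p = 0.19 and 0.31). Trp63, a marker of the surface ectoderm, had a log2 difference of -0.19, and Krt5 and Grhl3 had positive ones. In whole arches, a smaller share of epithelial cells and less RNA of these genes per epithelial cell cannot be told apart. Of the other marker lists, erythroid genes had the highest median, 0.61, at summed levels of 1233 to 4203 CPM against 2320 to 8160 CPM, and none of their 17 tested genes passed with limma or edgeR, with 0 at an unadjusted p under 0.05. Yolk sac endoderm markers had a median of -0.50, with 18 of 19 negative, and 0.09 without E10.0 replicate 4. Heart muscle markers had a median of -0.41, with 17 of 18 negative, at sums of 10.7 to 84.4 CPM against 14.1 to 18.1 CPM, and -0.19 without E10.0 replicate 4. Macrophage markers had a median of 0.32, with 15 of 16 positive, at sums of 11.5 to 22.9 CPM against 18.2 to 37.4 CPM, and 0.11 without E10.5 replicate 1. In these 3 lists limma called 0 genes, with 1 in each at an unadjusted p under 0.05, and edgeR called 1, Lrp2 of the yolk sac list, which was lower. Neuron markers summed to 140.6 to 168.2 CPM at E10.0 and 169.2 to 178.9 CPM at E10.5, without overlap. Their median log2 difference was -0.05, with 13 of 17 tested genes negative, so most of them did not share the higher sum. None of the 17 passed with limma or edgeR, with 1 at an unadjusted p under 0.05. The part of these cell types in the results was not tested.

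Cyp26a1 encodes an enzyme that breaks down retinoic acid and is itself a known target of retinoic acid receptors. It had the highest difference of the protein-coding genes that passed. It stood at 2.99, 10.1, 5.06, 6.77 and 2.78 CPM at E10.0 and at 28.6, 20.4 and 12.8 CPM in the E10.5 embryos. The groups did not overlap, and E10.0 replicate 2 was the highest of its stage. The log2 difference was 1.77 (SE 0.39, adjusted p = 0.0264), and 1.51 without E10.5 replicate 1 (adjusted p = 0.52). It missed the threshold too without E10.0 replicate 1, E10.0 replicate 5 or E10.5 replicate 2, at adjusted p-values of 0.117, 0.111 and 0.0761. The bases before the Cyp26a1 start are shown because they hold the repeat through which retinoic acid receptors are known to act on this gene. The stretch is RefSeq sequence of GRCm38.p6, the build mm10, at chr19:37697558-37697797, plus strand, with both copies of the repeat in capitals.

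Cyp26a1 upstream: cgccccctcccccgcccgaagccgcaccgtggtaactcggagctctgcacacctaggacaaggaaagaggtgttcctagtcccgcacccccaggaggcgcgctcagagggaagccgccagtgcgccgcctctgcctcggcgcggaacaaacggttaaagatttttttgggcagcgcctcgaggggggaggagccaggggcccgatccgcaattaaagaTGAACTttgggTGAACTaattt

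The capitals, read on the opposite strand, match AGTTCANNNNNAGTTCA, the hexamer AGTTCA repeated in the same orientation with 5 bases between, at chr19:37697776-37697792. Both strands were searched. This arrangement was present in 6 of 32851 promoter windows of 240 bases (0.0183%), while the hexamer alone was in 11.4% of them. Of the 44 genes that passed, 35 had a window in the table, and Cyp26a1 was the only one with the repeat. The bases searched for were those of the Cyp26a1 copies themselves, so its own match was fixed in advance. Variants of the hexamer and other spacings were not searched, so these counts do not cover other forms of the repeat. In the retinoic acid list, 1 of 22 tested genes passed, and the median was 0.10. The receptor genes and enzymes gave mixed values: Nr2f1 had a log2 difference of 0.73 (adjusted p = 0.0929), Rarb -0.41, and Cyp26b1, the second enzyme of this kind in the arch, -0.54, none of which passed. Aldh1a2, which makes retinoic acid, was low, with 0.0678 to 0.589 CPM at E10.0 and 0.351 to 1.91 CPM at E10.5.

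Scx encodes scleraxis, the transcription factor of tendon progenitors. It stood at 4.83, 5.23, 4.003, 4.93 and 4.21 CPM at E10.0 and at 12.1, 9.28 and 9.74 CPM in the E10.5 embryos, a tight group at each stage. The log2 difference was 1.01 (SE 0.24, adjusted p = 0.0452). It missed the threshold without each library except E10.0 replicate 2, with adjusted p-values of 0.0624 to 0.52, the highest without E10.5 replicate 1. It was the only one of 29 tested connective tissue, tendon and mural cell genes that passed. Its log2 difference was 0.90 to 1.08 over those 8 fits. In the cartilage and bone list 0 of 25 genes passed with limma, and edgeR's quasi-likelihood test called 0 as well. At an unadjusted p under 0.05 there were 4, against 8.86% of all genes tested. Slc25a12, a mitochondrial carrier of aspartate and glutamate, rose by 0.52 (SE 0.12, adjusted p = 0.036), from 44.2 to 60.0 CPM at E10.0 to 67.0 to 79.7 CPM at E10.5. It missed the threshold without E10.0 replicate 1 (0.124), 3 (0.0629) or 5 (0.129), or E10.5 replicate 1 (0.537) or 3 (0.106).

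Of the 17 higher genes, 6 were noncoding (35.3%, against 24.5% of all genes tested), and of the 27 lower genes 1 was. Pantr1 and Pantr2 are noncoding RNAs that flank Pou3f3, a POU-domain gene of the dorsal arch, on chromosome 1. Pantr1 (chr1:42590782-42694842, mm10, minus strand) lies 926 bases before Pou3f3, and Pantr2 lies 3885 bases beyond it. Pantr1 stood at 0.272, 3.16, 0.906, 1.99 and 0.543 CPM at E10.0 and at 18.2, 9.28 and 4.84 CPM in the E10.5 embryos. Every E10.5 embryo was above every E10.0 embryo, and the log2 difference was 2.28 (SE 0.37, adjusted p = 0.000275), and 1.85 without E10.5 replicate 1 (adjusted p = 0.111). Pantr2 stood at 0 to 0.589 CPM and at 0.561 to 1.68 CPM, with a log2 difference of 0.86 (adjusted p = 0.000275), and its groups overlapped. With edgeR Pantr2 missed the threshold (adjusted p = 0.12). Pou3f3 itself stood at 3.67, 8.87, 5.29, 11.8 and 1.76 CPM at E10.0 and at 19.8, 17.8 and 10.2 CPM in the E10.5 embryos. Its groups overlapped, and its log2 difference of 1.37 (SE 0.41) did not pass (adjusted p = 0.15). Pantr2 and the genes of the next paragraph were chosen for naming after their values were seen. Whether reads were counted by strand is not given in the sources used here, so reads of these neighbouring RNAs on opposite strands may not be fully separated.

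Pcdh10, a protocadherin gene, and the noncoding 2610316D01Rik point away from each other on chromosome 3 with starts 138 bases apart, and both were higher at E10.5. Pcdh10 (chr3:45378398-45435623, plus strand) stood at 0.884, 2.20, 0.755, 0.368 and 0.678 CPM at E10.0 and at 5.64, 3.44 and 2.31 CPM in the E10.5 embryos. 2610316D01Rik stood at 0.340, 1.58, 0.453, 0.883 and 0.814 CPM and at 4.96, 3.68 and 2.59 CPM. In both genes E10.0 replicate 2 was the highest of its stage, and the 3 E10.5 embryos had the same order. The log2 differences were 1.28 (SE 0.25, adjusted p = 0.00569) and 1.40 (SE 0.21, adjusted p = 0.000241). 2610316D01Rik had the smallest adjusted p of all genes and passed without any 1 library, at 3.07e-05 to 0.0324, while Pcdh10 had 0.451 without E10.5 replicate 1. Even so, 2610316D01Rik missed the threshold with edgeR (adjusted p = 0.0531), with limma on the groups compared alone and with the replicate block. With DESeq2 it passed (adjusted p = 0.000319). The stretch between the starts is shown because both genes are read away from it. It is RefSeq sequence of GRCm38.p6 at chr3:45378261-45378397, plus strand, that is in the direction of Pcdh10, with a CCAAT box on the other strand (ATTGG) in capitals.

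Between 2610316D01Rik and Pcdh10: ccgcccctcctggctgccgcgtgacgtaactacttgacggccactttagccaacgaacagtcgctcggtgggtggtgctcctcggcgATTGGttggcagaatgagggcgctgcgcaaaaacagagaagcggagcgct

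The 137 bases were 62.0% G and C, against a median of 54.0% over the 32851 promoter windows of that length. CCAAT on either strand was present in 23.1% of those windows. The other pair of neighbours among the 44 genes was Slc34a2, a phosphate transporter, with Sel1l3, 35.4 kb apart on chromosome 5, which fell by 1.32 and 0.87 (adjusted p = 0.0163 and 0.0205; 0.451 and 0.551 without E10.5 replicate 1). These 2 were named after their values were seen, as was D030025E07Rik, a noncoding RNA at 2.35 ± 0.778 CPM (SD, n = 5) that fell to 0.398 ± 0.216 CPM (SD, n = 3), with a log2 difference of -1.24 (adjusted p = 0.000275).

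The remaining lists held few or no calls. In the Hox and TALE list 0 of 16 genes passed with limma and 0 with edgeR. At an unadjusted p under 0.05 there were 3, all higher, against 3.99% higher over all genes tested. They were Hoxa2, Hoxd1 and Hoxaas2, the transcript on the other strand at Hoxa2. Hoxaas2 had a log2 difference of 0.63 (SE 0.16, adjusted p = 0.0745), without overlap, and shares its place with Hoxa2, so the same strand limit applies. Among 24 reported Hoxa2 targets and PA2 genes, 2 passed: Nkx2-6, lower, and 3110099E03Rik, a noncoding RNA that rose by 1.29 (adjusted p = 0.0395, and 0.722 without E10.5 replicate 1). Meis2, a known target of Hoxa2, had a log2 difference of -0.06. Of the Wnt list, 1 of 54 passed, the transcription factor gene Tcf7, which fell by 0.73 (adjusted p = 0.037), from 37.4 to 60.9 CPM to 27.4 to 32.2 CPM (adjusted p = 0.52 without E10.5 replicate 1). In the FGF, BMP and Notch lists 0 of 28, 27 and 22 genes passed with limma, and 0 with edgeR. At an unadjusted p under 0.05 they had 6, 4 and 2 genes, against 8.86% of all genes tested. Of those 6, 4 and 2 genes, 5, 4 and 2 were lower (4.87% of all genes tested were lower). Among them were Spry1, Fgf3, Id4 and Hey2 with log2 differences of -0.79, -1.06, -0.77 and -0.79. In the cell cycle list 0 of 50 passed with limma and 0 with edgeR, and the median was 0.03. An unadjusted p under 0.05 was found for 4 of the 50, near the share of 8.86% over all genes tested.

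**Figure D3:**
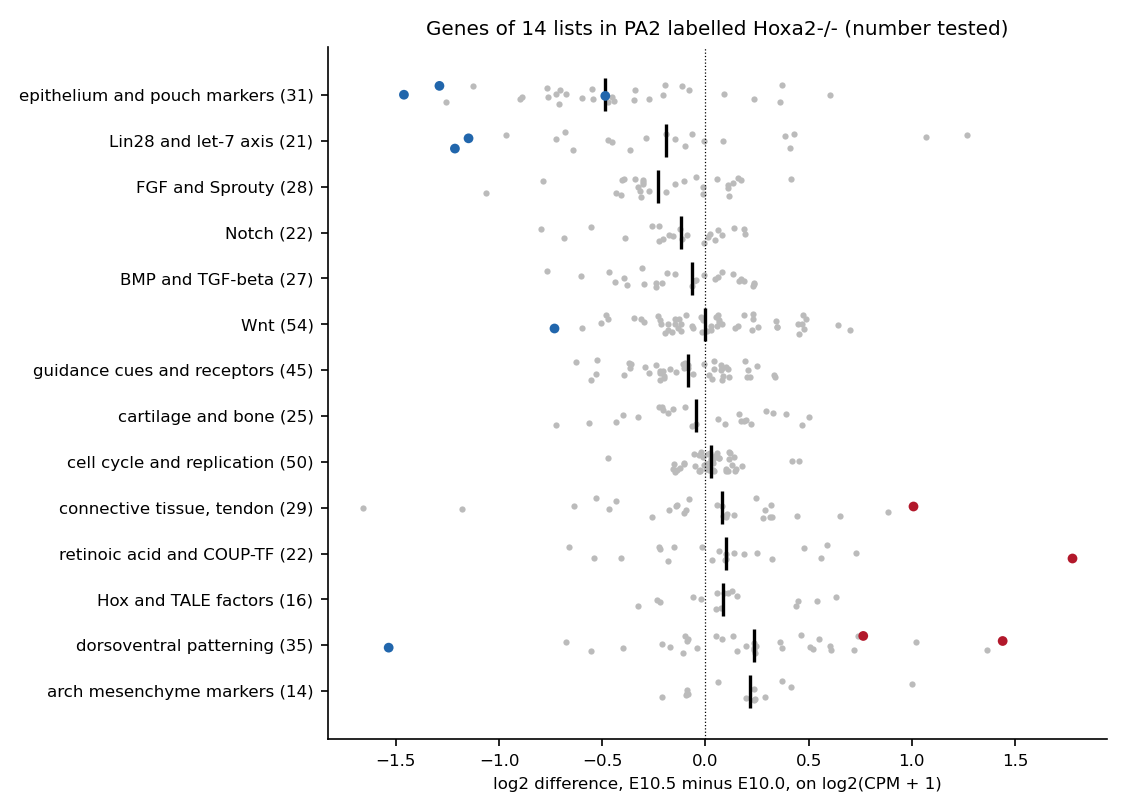
Each point is a tested gene of 1 of 14 lists in PA2 labelled Hoxa2-/-, placed by its log2 difference, E10.5 minus E10.0; a gene in 2 lists appears in both. Black bars are list medians, large coloured points are genes past the threshold, and the bar of the epithelium and pouch markers lies at -0.49 while that of the dorsoventral list lies at 0.23.

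The step from E10.0 to E10.5 was set beside the 2 earlier stages of the same label and arch (n = 4 at E9.0 and n = 5 at E9.5). Of the 27 lower genes, 16 had means that went down at each of the 3 steps from E9.0 to E10.5, and of the 17 higher genes 9 had means that went up at each step. The last step was given by how these genes were chosen, and the share over all genes was not counted. Lin28a went from 125.5 to 105.3, 67.5 and 30.01 CPM, and Nkx2-6 from 83.1 to 41.1, 18.5 and 6.06 CPM. Edn1 went from 35.2 and 33.2 CPM to 14.7 and 4.45 CPM. Gsc started at 0.104 CPM and reached 0.455, 2.63 and 9.33 CPM. Cyp26a1 turned instead: its mean went down from 18.5 to 9.95 and 5.54 CPM and then stood at 20.6 CPM, above its level at E9.0. Scn4b, a sodium channel subunit named after its values were seen, turned the other way, from 0.383 to 1.34 and 4.06 CPM and then 1.19 CPM (E10.5 against E10.0: log2 difference -1.22, adjusted p = 0.0288). Wfikkn1 had means of 35.5, 43.4 and 47.9 CPM up to E10.0 and 16.7 CPM at E10.5. These earlier steps are descriptions and were not tested.

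**Figure D4:**
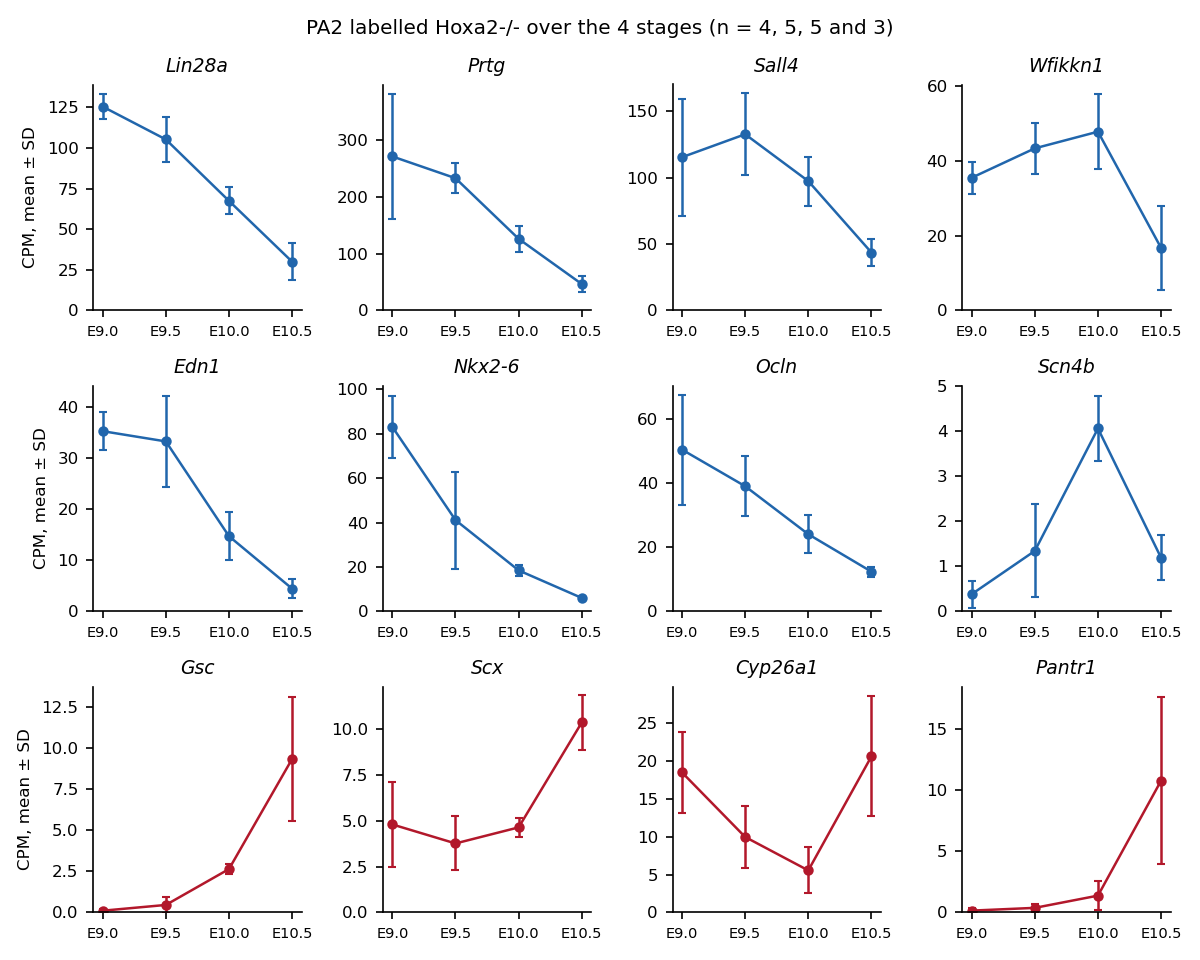
Mean CPM with SD of 12 genes in PA2 labelled Hoxa2-/- at the 4 stages from E9.0 to E10.5 (in order, n = 4, 5, 5 and 3 libraries), from y axes that start at 0. Lin28a, Prtg, Edn1, Nkx2-6 and Ocln go down over all 4 stages, Gsc and Pantr1 go up, and Cyp26a1 and Scn4b turn at E10.0.

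The same stages were compared in PA1 of the same embryos. There 55 genes passed the test (0.298%), 36 higher (0.195%) and 19 lower (0.103%). Without adjustment, 4.69% of the genes tested were higher and 5.42% lower in PA1 at a p under 0.05. Of these, 8 had also passed in PA2, all in the same direction, which is 18.2% of the PA2 genes and 14.5% of the PA1 genes. They were Lin28a, Prtg, Wfikkn1 and Plpp2, all lower, and Gsc, Ednra, Otor and 2610316D01Rik, all higher. Their log2 differences in PA1 were -1.39 for Lin28a, -1.40 for Prtg, -1.69 for Wfikkn1, -0.44 for Plpp2, 1.31 for Gsc, 0.77 for Ednra, 0.71 for Otor and 0.97 for 2610316D01Rik, the last against 1.40 in PA2. Plpp2 and Otor were named after their values were seen. Since PA1 and PA2 come from the same embryos, these are not independent repeats of the stage comparison. In PA1 too, E10.5 replicate 1 had the lowest value of the 3 in 17 of the 27 lower genes and the highest in 15 of the 17 higher genes, against 22 and 13 in PA2.

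The other PA2 genes had smaller differences in PA1, some only slightly smaller, or were hardly detected there. Edn1 went from 6.81 to 3.60 CPM in PA1 (log2 difference -0.81), and Ocln from 16.3 to 13.7 CPM (-0.25). Cyp26a1 was at 6.44 and 7.55 CPM (0.15), and Pantr1 at 0.779 and 2.06 CPM (0.68). Nkx2-6 averaged 0.448 and 0.18 CPM in PA1, Fyb2 0.102 and 0.221 CPM, and Slc34a2 0.0262 and 0 CPM. Other genes had PA1 differences nearer to those in PA2. Scx had 0.91 in PA1 against 1.01 in PA2, Sall4 -0.94 against -1.15, and 3110099E03Rik 1.04 against 1.29. Of the 44 genes, 42 had a smaller difference in PA1 than in PA2, all but Lin28a and Ednra. The sign was the same in both arches for 26 of the 27 lower and 16 of the 17 higher genes. In PA1 the stages did not overlap in 16 of the 27 lower and 8 of the 17 higher genes. The 44 genes were chosen for their difference in PA2, so these counts are descriptions.

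The test of the difference between the arches, PA2 minus PA1, called 0 of 18428 genes with limma (smallest adjusted p = 0.857), with 338 at an unadjusted p under 0.05 (1.83%), of which 112 (0.608%) were more positive in PA2 and 226 (1.23%) more negative. It called 0 with edgeR's quasi-likelihood test (576 at an unadjusted p under 0.05) and 1 with DESeq2, Arg1, an arginase gene (1.08, adjusted p = 0.0322). With the embryo as a block, which PA1 and PA2 of the same embryo allow, it called 0 of 18428, the smallest adjusted p was 0.136, for Slc34a2, and 1149 genes had an unadjusted p under 0.05. Fitted on the groups compared alone, limma called 1, Slc34a2 (-1.29, adjusted p = 0.0354), and with a pseudocount of 5 it called 1 other, the gene model Gm43376 (-0.48, adjusted p = 0.00119). Slc34a2 was hardly detected in PA1 at either stage and had little room to fall there, so its value is nearly all its change in PA2. The largest differences of this kind among the PA2 genes were 1.62 for Cyp26a1 (SE 0.56), 1.6 for Pantr1 (SE 0.52), -1.39 for Fyb2 (SE 0.38) and -1.29 for Slc34a2 (SE 0.40), each with an adjusted p of 1 in the limma fit. Among genes with a positive difference in PA1 and a smaller or negative one in PA2, chosen after their values were seen, was Alx1, a homeobox gene of frontonasal and jaw mesenchyme. It went from 3.69 to 17.9 CPM in PA1 and from 3.66 to 3.06 CPM in PA2, a difference of -2.07 (SE 0.49, adjusted p = 0.857). Cyp26b1 had log2 differences of 0.82 in PA1 and -0.54 in PA2, and Gm43376 of 1.13 in PA1 (adjusted p = 0.000111) and 0.25 in PA2.

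**Figure D5:**
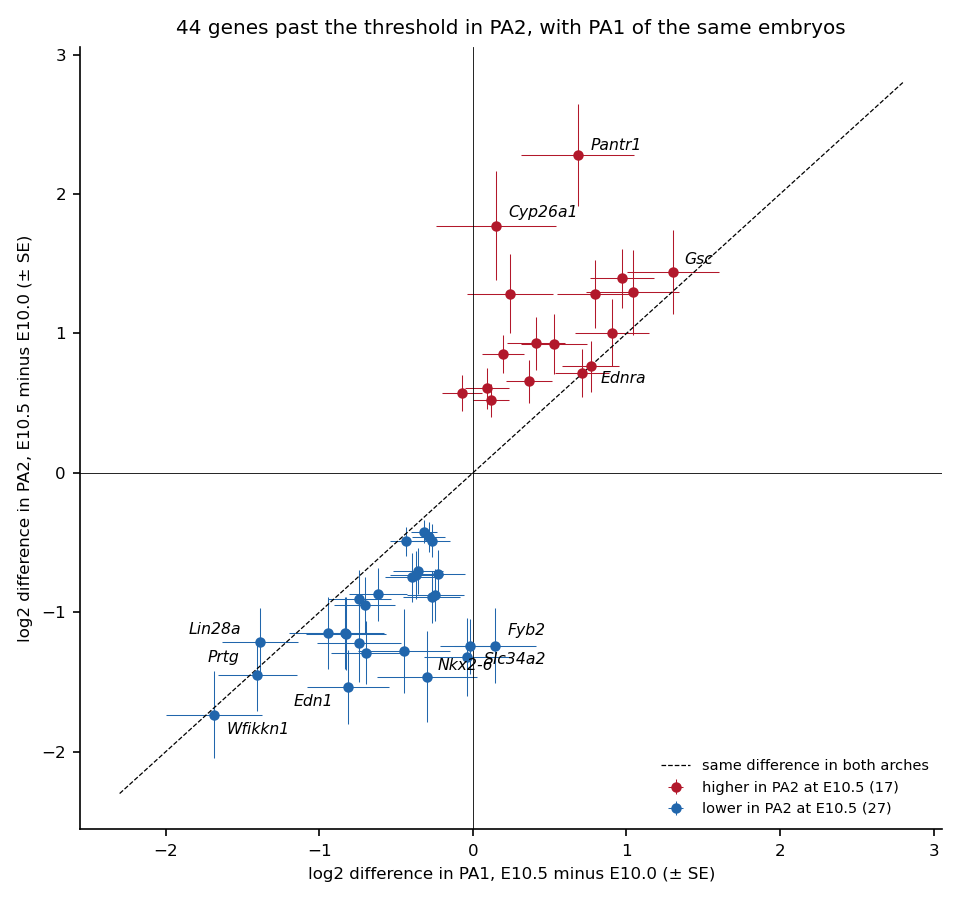
Log2 difference between E10.5 and E10.0 of the 44 genes past the threshold in PA2 labelled Hoxa2-/-, in PA1 (x axis) and in PA2 (y axis) of the same embryos, with SE bars from the limma fit. Wfikkn1, Prtg, Lin28a, Gsc and Ednra lie near the dashed line of equal difference, while Cyp26a1, Pantr1, Fyb2 and Slc34a2 lie near 0 on the PA1 axis or well off the line.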

How the data were processed

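Polyadenylated RNA of single dissected arches was sequenced (SMART-seq v4 cDNA, Nextera XT libraries, per the labels' protocols). The authors deposited 1 table of signal values for 21948 Ensembl genes in 68 libraries of 16 groups. The submitters' processing notes name mm10, bcl2fastq 2.18, TopHat2 2.1.1 and R 3.3.2; the counter, annotation and strand setting are not given in the sources used here. The plan assumed CPM; the columns sum to 926298 to 1051959, are used as CPM here, and are whole multiples of 1 read within 0.001 reads in all 68 libraries. Symbols (21921 genes) and positions came from GENCODE M21.

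Genes with at least 1 CPM in at least 3 libraries were kept (18428). All 68 libraries entered 1 fit of limma 3.58.1 (R 4.3.3) to log2(CPM + 1), in which each group had its own mean, with a trended prior, a two-sided test, Benjamini-Hochberg adjustment and a threshold of 0.05. edgeR 4.0.16 and DESeq2 1.42.0 on the recovered reads, other pseudocounts, filters, scaling, samples, sex, the replicate block and leaving out libraries were alternatives. The fit was tested on simulated data. Limits from 3 reads cover counting error only, since reads were PCR-amplified without molecular identifiers.

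The comparison, gene lists and tests were chosen with earlier results of these data known. The naming rule took up to 15 genes in each direction with the largest difference that passed, averaged at least 5 CPM in 1 group, did not overlap and had a named symbol (up to 8 for the difference between the arches, where none passed), and also Hoxa2 and list members. Other genes are said to be chosen after their values were seen.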

Additional observations from a re-analysis of the deposited data

Results flagged for a closer look

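In the 5 libraries of E10.0, 55 series of values were tested for a library whose gap to its nearest neighbour exceeded Dixon's critical share of the range (0.71), and 6 were found; chance gives about 1 in 20. Lin28a was low in replicate 2, at 52.9 CPM against 69.4 to 73.7 CPM in the others. Sall1 was high in replicate 1, at 23.4 CPM against 10.8 to 14.2 CPM. Gpd2, a mitochondrial dehydrogenase gene, was high in replicate 1, at 56.9 CPM against 46.6 to 48.1 CPM. Replicate 2 was high for Pcdh10, at 2.20 CPM against 0.368 to 0.884 CPM, and for the noncoding E330013P04Rik, at 6.88 CPM against 2.64 to 3.74 CPM. The summed yolk sac endoderm markers were 345.3 CPM in replicate 4, against 19.4 to 26.9 CPM. Gpd2 and E330013P04Rik were named after their values were seen.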

How the results depend on the processing

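The 44 genes of PA2 kept their direction under every alternative run, but how many passed varied. With limma on the groups compared alone 22 passed, with 10 of the 44 among them. With DESeq2 623 passed, with 37 of the 44 among them. On the 4 groups of both arches alone, an alternative chosen after seeing the data, 286 passed. Leaving out 1 library gave 4 to 70. edgeR called 32, of which 10 were among the 44. A pseudocount of 0.25 gave 31 genes, 16.1% of them higher, and 5 gave 57, 57.9% higher, against 38.6%. In PA1 the count of 55 became 25 and 107 with these pseudocounts, 140 with edgeR, 539 with DESeq2, 161 on the 4 groups alone, and 4 to 86 without 1 library. The difference between the arches stayed at 0 without each library, and was 1 with a pseudocount of 5 (Gm43376), with DESeq2 and on the groups compared alone (Slc34a2). For this test the groups compared are the 4 groups of both arches, so the fit on the 4 groups alone is the same fit. With the replicate block 0 genes passed in PA2 (2675 at an unadjusted p under 0.05, smallest adjusted p 0.0552) and 0 in PA1 (2024, smallest 0.166). The numbers do not pair embryos across the stages, since the stages came from different embryos. Same-numbered libraries of the 2 stages correlated above 0.1 in 1 of 3 pairs (median 0.0974). Libraries with different numbers did so in 1 of 12 pairs (median -0.0214). Whether the number stands for something shared between the stages was not tested. Of the epithelium and pouch markers, edgeR called 1 and median-of-ratios scaling 2, both lower. The yolk sac median of -0.50 ran from -0.63 to 0.09 without 1 library. Of the 44 calls, 4 were kept without E10.5 replicate 1, 1 of only 3 libraries at that stage.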
